A study of Mus musculus with 6 samples.

Results

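The accessible chromatin around 10 genes of Polycomb repressive complex 1 (PRC1) was described in untreated mouse embryonic stem cells: the catalytic genes Ring1 and Rnf2, the Pcgf genes Pcgf1, Pcgf2, Pcgf3, Pcgf5 and Pcgf6, and the partner genes Cbx7, Rybp and Phc2. Peaks were taken where they overlapped the RefSeq span of a gene widened by 50 kb on each side. This gave 134 peaks of the 77629 in the list, and no peak was shared between the windows of these 10 genes. The assay was ATAC-seq, in which the transposase Tn5 cuts and tags open DNA. The library came from E14 embryonic stem cells grown in 2i/LIF medium, with an NSD1-dTAG knockin and no dTAG-13 (0 h), dTAG-13 being a small molecule that directs the tagged NSD1 protein to degradation. The labels name 6 samples in 6 groups of 1, and the 5 others, treated with 500 nM dTAG-13 or grown as embryoid bodies, were not analysed here. Whether the knockin line is 1 clone is not stated in the labels. With 1 library there is no spread between replicates, no test between conditions and no p-value, and the intervals below cover counting error only.

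As background, PRC1 adds ubiquitin to a lysine of histone H2A, a mark of repressed developmental genes in embryonic stem cells. RING1 (RING1A) and RNF2 (RING1B) are its alternative E3 ligases, and each pairs with a PCGF protein that decides which complex is formed. Canonical complexes carry a CBX protein, which reads H3K27me3, and a PHC protein, which polymerises through its SAM domain. Variant complexes carry RYBP or its paralog in place of CBX.

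RefSeq promoter sequences (GRCm38.p6) were matched to 8 of the 10 genes, all but Pcgf1 and Rybp. The 250 bases before the start are printed for 6 starts, 5′ to 3′ on the strand of the gene, with CG dinucleotides in capitals. Ring1 and Rnf2 are shown as the catalytic genes, Pcgf3 as the gene with the highest fold enrichment at its end, and the 3 starts of Pcgf5 because they differed in accessibility. The sequences stand at chr17:34024681-34024930 on the minus strand, chr1:151500992-151501241 on the minus strand, and chr5:108461009-108461258 on the plus strand. The 3 starts of Pcgf5 stand at chr19:36348079-36348328, chr19:36378817-36379066 and chr19:36409498-36409747, all on the plus strand.
Ring1: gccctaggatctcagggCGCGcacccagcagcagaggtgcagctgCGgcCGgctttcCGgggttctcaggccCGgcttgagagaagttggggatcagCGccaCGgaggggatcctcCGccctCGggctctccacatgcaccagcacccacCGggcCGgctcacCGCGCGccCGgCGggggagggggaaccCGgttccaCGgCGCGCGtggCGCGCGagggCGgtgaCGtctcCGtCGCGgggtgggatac
Rnf2: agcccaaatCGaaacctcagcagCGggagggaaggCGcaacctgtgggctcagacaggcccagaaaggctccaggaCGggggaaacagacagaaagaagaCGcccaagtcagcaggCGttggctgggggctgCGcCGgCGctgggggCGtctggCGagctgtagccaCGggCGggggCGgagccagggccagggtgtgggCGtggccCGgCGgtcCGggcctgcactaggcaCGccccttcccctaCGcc
Pcgf3: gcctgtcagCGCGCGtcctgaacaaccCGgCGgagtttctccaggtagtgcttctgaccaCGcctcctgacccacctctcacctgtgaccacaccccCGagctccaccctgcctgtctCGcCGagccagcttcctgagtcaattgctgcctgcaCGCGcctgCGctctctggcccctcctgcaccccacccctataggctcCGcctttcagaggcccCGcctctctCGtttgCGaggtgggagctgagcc
Pcgf5 start 1: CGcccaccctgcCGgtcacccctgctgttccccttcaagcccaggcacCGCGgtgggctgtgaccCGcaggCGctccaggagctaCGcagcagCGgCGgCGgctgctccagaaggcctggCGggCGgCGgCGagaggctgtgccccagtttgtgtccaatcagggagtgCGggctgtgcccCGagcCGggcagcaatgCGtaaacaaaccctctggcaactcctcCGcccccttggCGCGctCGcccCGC
Pcgf5 start 2: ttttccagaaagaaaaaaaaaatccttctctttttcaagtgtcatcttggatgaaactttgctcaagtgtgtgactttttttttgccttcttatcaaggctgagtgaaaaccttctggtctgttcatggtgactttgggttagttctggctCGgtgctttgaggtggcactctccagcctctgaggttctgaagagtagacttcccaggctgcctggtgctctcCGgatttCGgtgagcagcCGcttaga
Pcgf5 start 3: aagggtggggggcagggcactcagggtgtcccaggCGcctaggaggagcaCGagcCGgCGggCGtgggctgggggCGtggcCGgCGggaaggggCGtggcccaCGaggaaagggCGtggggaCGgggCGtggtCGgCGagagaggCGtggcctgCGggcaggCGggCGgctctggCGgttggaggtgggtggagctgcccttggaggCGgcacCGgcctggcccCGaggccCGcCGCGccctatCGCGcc
The stretch before the second start of Pcgf5 holds 4 CG dinucleotides, against 23 and 28 before the first and the third, 30 for Ring1, 20 for Rnf2 and 16 for Pcgf3.

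Peak height is given as the summit pileup, which counts the reads or fragments that cover the summit, recovered from the deposited values, with an exact Poisson 95% interval. Fold enrichment is the authors' value per peak, the pileup plus 1 over the local background plus 1, where the background is taken from the same library. The median over all 77533 peaks on chromosomes was a pileup of 23 and a fold of 7.05. Where the background was at its genome-wide floor of 1.3, no peak with a pileup under 6 was listed, and weaker sites there were not detectable. The number of reads in the library was not given. The cell type was checked by accessibility, since no expression was measured. Of 7 embryonic stem cell markers all had a peak at an end or in the gene, 6 of them at an end, with a median gene-end pileup of 116.5. The tallest were at Pou5f1 (152) and Zfp42 (134), and Esrrb had one only in its body (pileup 179). Of 8 markers of other cell types, 6 had one at an end, with a median of 32 and the tallest at Sox17 (62) and Col1a1 (38). Acta2 had one only in its body (pileup 13) and Col3a1 had none. Of all 21883 protein-coding genes, 66.5% had a peak at an end, with a median pileup of 66 among those genes. By fold the marker lists lay closer together and both below all genes. The median gene-end fold was 6.6 for the embryonic stem cell markers, 5.1 for the other markers and 11.04 over protein-coding genes. The share with a peak at an end or in the gene was not computed over all genes.

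All 10 PRC1 genes had a peak within 1 kb of an annotated gene end, as did 66.5% of the 21883 protein-coding genes. Each of the 10 also had one of pileup 20 or more, against 60.4% of protein-coding genes. The tallest gene-end peaks ranged from a pileup of 31 at Pcgf5 to 153 at Pcgf2, with a median of 84.5. Over the 14548 protein-coding genes that had one the median was 66, with quartiles of 37 and 101. Pileup was above that median in 9 of 10 genes and fold was above its median of 11.04 in 4 of 10, the median fold of the 10 genes being 10.61. The order by pileup was Pcgf2, Pcgf3, Rnf2, Ring1, Cbx7, Pcgf1, Pcgf6 with Rybp, Phc2 and Pcgf5. Of the neighbours in that order, only the intervals of Phc2 (53.7 to 87.3) and Pcgf5 (21.1 to 44.0) did not overlap.

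**Figure D1:**
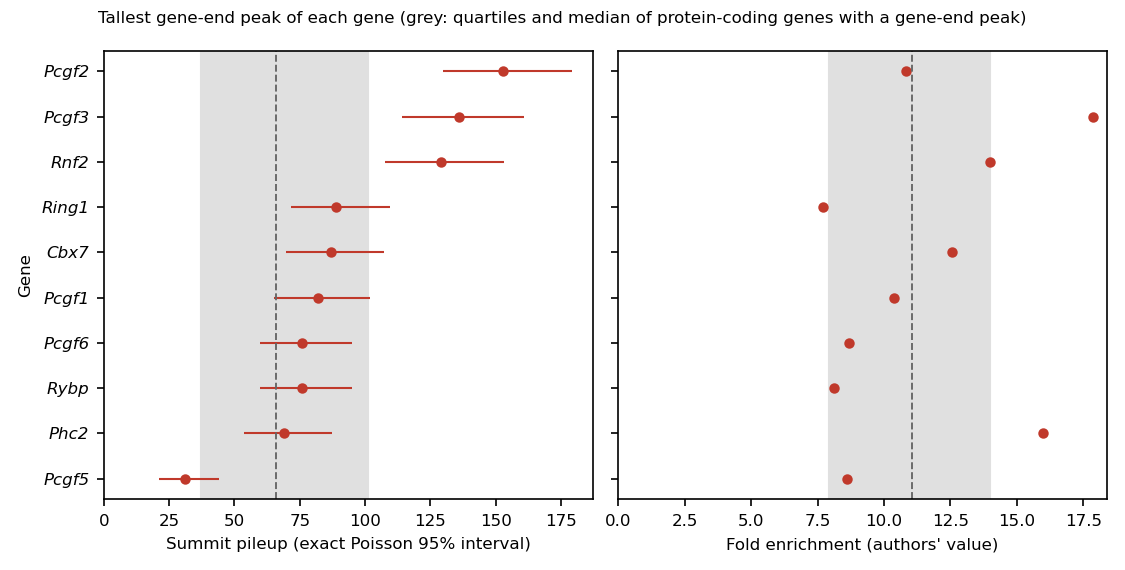
Tallest gene-end peak of each of the 10 genes. The left axis shows summit pileup with exact Poisson 95% intervals and the right axis the authors' fold enrichment, both per peak of 1 library. Grey bands span the quartiles and dashed lines mark the medians (66 and 11.04) of the 14548 protein-coding genes that have one. Pcgf5 has the lowest pileup, 31, and Pcgf3 the highest fold, 17.88.

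Both catalytic genes were accessible at their start. Rnf2 (chr1:151469398-151500991) had its gene-end peak at chr1:151500178-151501341, 1164 bp wide, with a pileup of 129 (107.7 to 153.3) and a fold of 13.98, and its summit lay 21 bp after the RefSeq start. This pileup was above that of 87.3% of the protein-coding genes that had one. Ring1 (chr17:34020792-34024680) had its peak at chr17:34024301-34025128, with a pileup of 89 (71.5 to 109.5), a fold of 7.71 and a summit 4 bp before the start. The intervals of the 2 genes overlap only between 107.7 and 109.5. The peak of Ring1 also reached the 1 kb window of an end of H2-Ke6, its neighbour, so it cannot be assigned to Ring1 alone.

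The surroundings of the 2 catalytic genes differed in what the peaks lay next to. Ring1 lies in a gene-dense part of chromosome 17 with 5 protein-coding neighbours in its window, and 4 of its 13 peaks lay at the ends of other genes. The tallest, with a pileup of 100 (81.4 to 121.6), was shared by H2-Ke6 and Slc39a7, and the next, with a pileup of 88, by Slc39a7 and Rxrb, which encodes a retinoid X receptor. On the other side of Ring1, 3 peaks with pileups of 22, 74 and 39 lay near ends of the long non-coding RNA gene AA388235. No peak lay in the body of Ring1 away from its ends. Rnf2 had 10 peaks. The tallest of these, with a pileup of 191 (164.9 to 220.1), lay 40.28 kb outside the gene at the shared end of Swt1 and Trmt1l, and was the tallest of all 134. Beyond its start, outside protein-coding genes, Rnf2 had peaks with pileups of 78 and 45 at 14.74 and 16.53 kb and one of 74 at 43.12 kb. Inside its body there were 2 lower ones, of 39 and 24.

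The Pcgf genes covered the whole range of gene-end height. Pcgf2 (MEL18, chr11:97688821-97702434), a subunit of canonical PRC1, had the tallest, a pileup of 153 (129.7 to 179.3) and a fold of 10.84 at chr11:97702770-97703660. That peak lay 0.34 kb outside Pcgf2 and overlapped the proteasome gene Psmb3. It is counted as shared because it reached the 1 kb end windows of both genes, and it cannot be assigned to Pcgf2. The RefSeq start of Pcgf2 in the promoter table lies 2.79 kb inside its span. The peak just before that start, which did not cover it, was lower, with a pileup of 51 (38.0 to 67.1) and a fold of 2.98. It was 1 of 3 peaks in the body, the others having pileups of 39 and 63.

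Pcgf3 and Pcgf5, which form the closely related variant complexes PRC1.3 and PRC1.5, differed most in gene-end height among the Pcgf genes that do not share their end peak. Pcgf3 (chr5:108461259-108506976) had a pileup of 136 (114.1 to 160.9) and a fold of 17.88 at chr5:108460970-108461912, with the summit 54 bp before the start, and that fold was above that of 96.6% of the protein-coding genes that had one. Its body held 1 further peak, with a pileup of 12 (6.20 to 20.96). At the first start of Pcgf5 (chr19:36348329-36460970) the peak was 1578 bp wide but low, with a pileup of 31 (21.1 to 44.0) and a fold of 8.62, and its summit lay 786 bp after the start. The tallest peak of Pcgf5 was inside the gene, at chr19:36409330-36410283, with a pileup of 88 (70.6 to 108.4) and a fold of 17.06. This peak overlapped the third RefSeq start, 61.42 kb after the first, and its interval does not overlap that of the first start. The second start, 30.74 kb after the first, had no listed peak within 29.32 kb. Of the 3 printed stretches of Pcgf5, the one with 4 CG dinucleotides was thus the one without a peak.

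Pcgf1 and Pcgf6 had gene-end peaks of intermediate height. Pcgf1 (chr6:83077552-83080855), whose protein works with the CpG-island binder KDM2B, had a pileup of 82 (65.2 to 101.8) and a fold of 10.39 at chr6:83077703-83078926, with the summit inside the gene, 0.53 kb from its lower-coordinate end. Pcgf6 (chr19:47033617-47050939), whose variant complex contains MGA and MAX and represses germline genes in embryonic stem cells, had a pileup of 76 (59.9 to 95.1) and a fold of 8.70 at chr19:47050319-47051023. A second peak in the body of Pcgf6, at chr19:47047330-47047758, was nearly as tall at 69 (53.7 to 87.3). In the small, gene-dense window of Pcgf1, 12 of 16 peaks lay at ends of other genes, among 13 protein-coding neighbours. The tallest of these had a pileup of 153 (129.7 to 179.3). It lay at ends of Wbp1 and Ino80b, a gene of the INO80 remodeller, and overlapped both genes. For Pcgf6 the tallest in the window, 130 (108.6 to 154.4) with a fold of 19.26, lay at the end of Atp5md and Pdcd11.

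Among the partner genes, the intervals of gene-end pileup overlapped while folds ran from 8.11 to 16.0. Cbx7 (chr15:79915804-79971143), which encodes a chromodomain protein of canonical PRC1, had a pileup of 87 (69.7 to 107.3), Rybp (chr6:100228565-100287358) one of 76 (59.9 to 95.1) and Phc2 (chr4:128654655-128752881) one of 69 (53.7 to 87.3). The folds were 12.55, 8.11 and 16.0. The denominators differed, the local background being 6.01 at Cbx7, 8.50 at Rybp and 3.38 at Phc2. By fold, Phc2 stood above 89.1% and Rybp above 26.2% of the protein-coding genes that had one, while by pileup they stood above 51.8% and 57.7%. The end peaks lay at chr15:79970712-79971687, chr6:100287048-100288522 and chr4:128654371-128655245. Cbx7 and Phc2 also had a low peak at their other end, with pileups of 22 and 13. That of Cbx7 also overlapped the body of the neighbouring gene Apobec3.

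Cbx7 had the most peaks in its body and in its window. Its 9 body peaks had pileups from 14 to 83 and folds from 2.91 to 6.64. Of these, the peak nearest the lower-coordinate end also lay within 1 kb of an end of Apobec3. The tallest lay at chr15:79927240-79928160 (83, 66.1 to 102.9), and another, with a pileup of 61 (46.7 to 78.4), overlapped the RefSeq start of the promoter table, 38.50 kb inside the span. That start had a fold of 3.93 at a local background of 14.77. Thus the outer end of the RefSeq span had a fold of 12.55 and the listed start a lower one, while the pileup intervals, 69.7 to 107.3 and 46.7 to 78.4, overlap. Rybp, with no protein-coding neighbour in its window, had 7 body peaks with pileups from 7 to 47 and 12 peaks outside protein-coding genes, 1 of them at an end of the long non-coding RNA gene Gm33448. The tallest of these, 122 (101.3 to 145.7), lay 48.15 kb beyond the higher-coordinate end, close to the edge of the window, with neighbours of 48 and 35 on either side. Phc2 had 6 body peaks, of which the tallest had a pileup of 60 (45.8 to 77.2), and all 6 lay in the part of the gene after an interval of 56.1 kb without a peak.

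**Figure D2:**
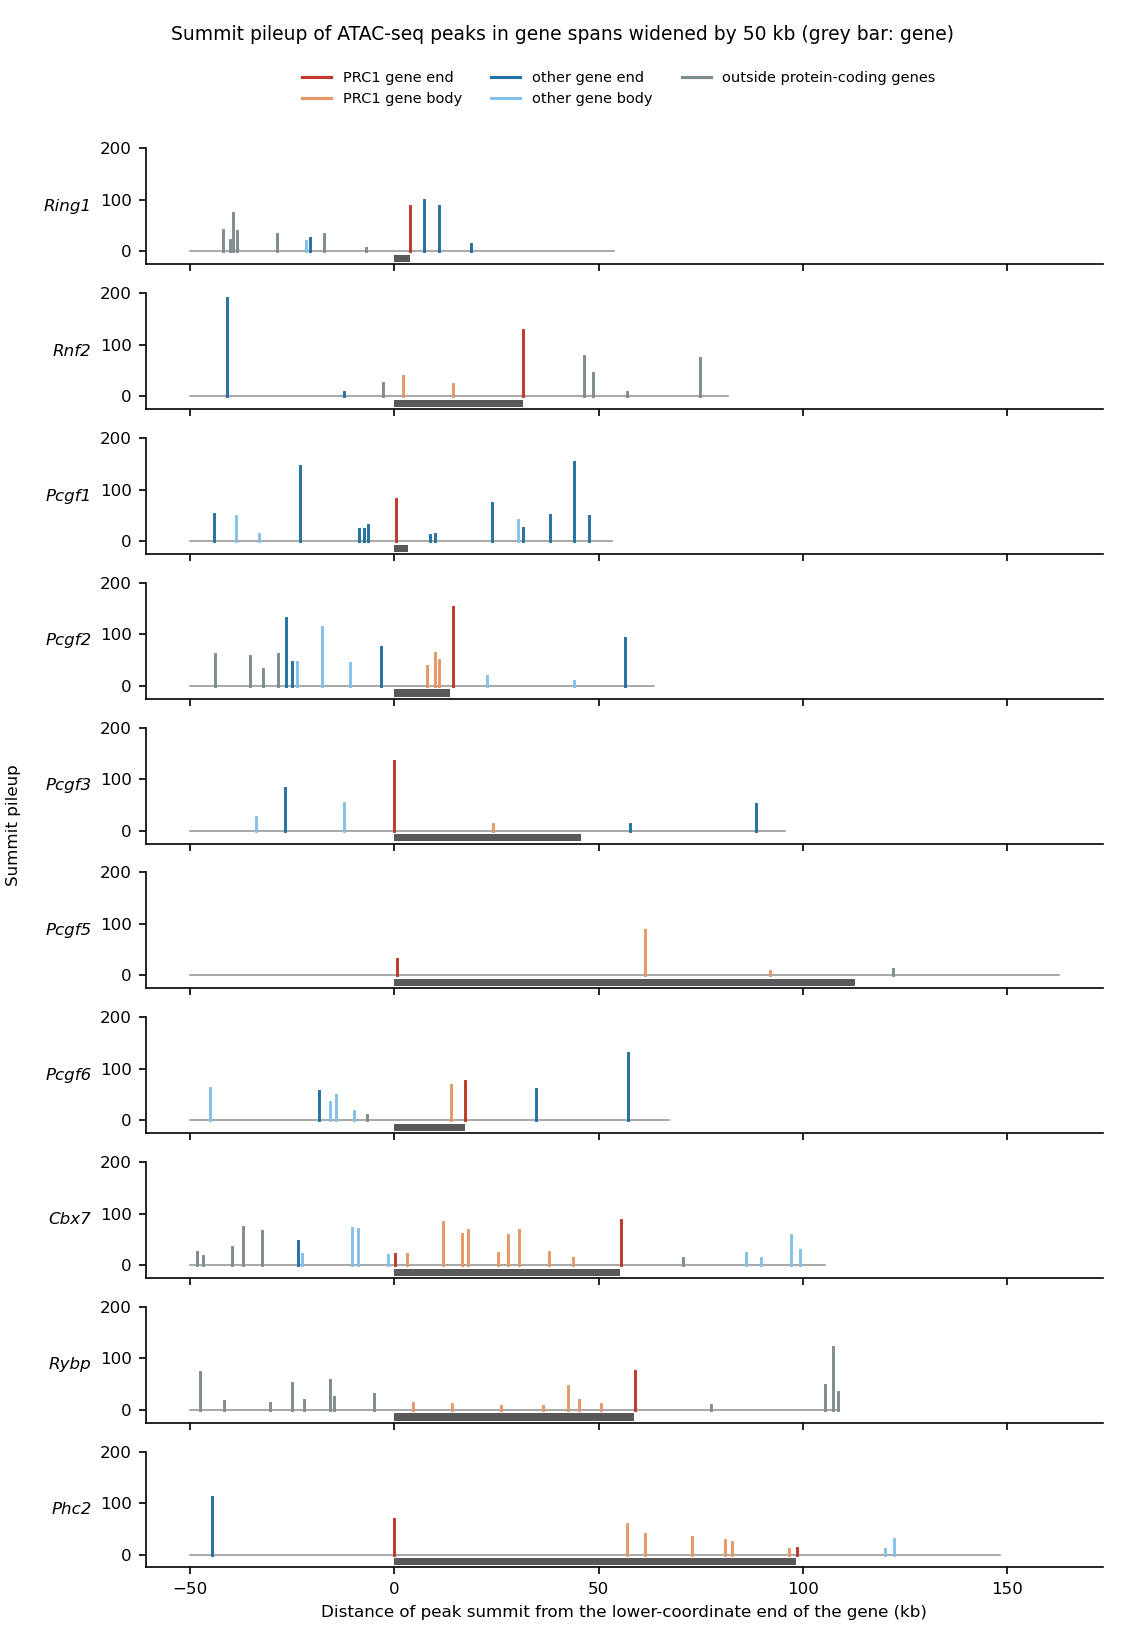
Summit pileup (vertical axis) of each of the 134 peaks against the distance of its summit from the lower-coordinate end of the gene in kb, 1 panel per gene. Grey bars are the gene spans, thin lines the windows, and colours the position of the peak. Cbx7 and Rybp have many body peaks, and Pcgf5 has 4 peaks in all, of which the tallest (88) lies inside the gene.

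With flanks of 50 kb, Cbx7 had the most peaks around the gene and Pcgf5 the fewest. The number of peaks ranged from 4 at Pcgf5 to 26 at Cbx7, with a median of 12, against a median of 7 over all protein-coding genes. Window lengths ranged from 103.3 kb at Pcgf1 to 212.6 kb at Pcgf5, so the density is also given. Per 100 kb of window it ran from 1.88 at Pcgf5 and 4.80 at Pcgf3 to 15.49 at Pcgf1 and 16.74 at Cbx7. The median was 10.52, against 5.07 over all protein-coding genes (quartiles 2.07 and 8.84), and 8 of 10 genes were above 5.07. Cbx7 was denser than 98.9% of protein-coding genes and Pcgf5 denser than 21.8%. With flanks of 100 kb, Pcgf2 (15.92) and Ring1 (15.2) were denser than Cbx7 (14.49). With flanks of 50 kb and -log10 q of at least 5, Pcgf1 (14.52) was denser than Cbx7 (13.52). With a pileup of at least 20, Cbx7 (13.52) was little above Pcgf2 (13.2). The 2 genes without protein-coding neighbours, Rybp and Pcgf5, stood at 12.59 and 1.88 per 100 kb, and at 6.93 (11 peaks) and 0.94 (2 peaks) with only peaks of pileup 20 or more counted. In the longest interval without a peak, Pcgf5 had 59.8 kb and Pcgf1 13.3 kb.

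**Figure D3:**
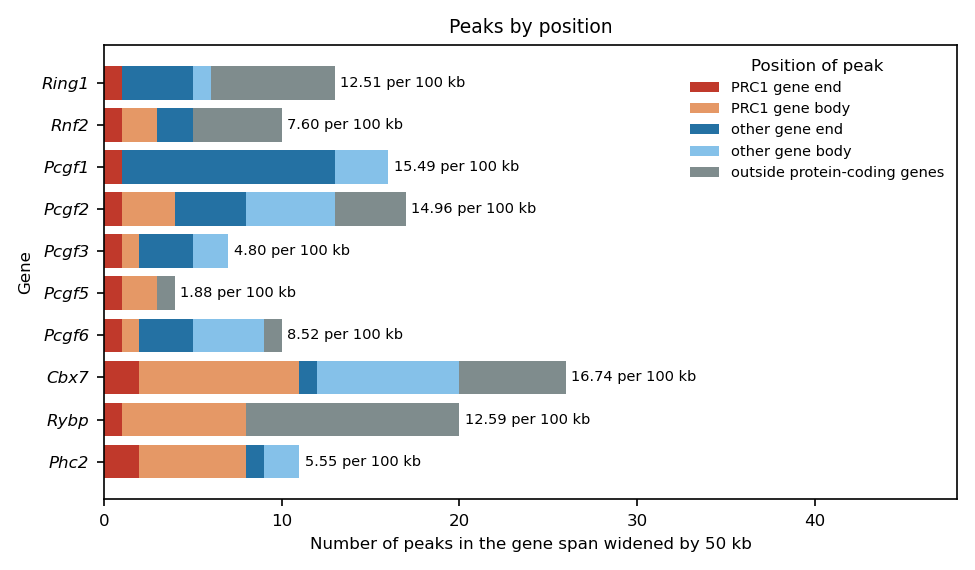
Number of peaks in the span of each gene widened by 50 kb (horizontal axis), divided by position, with the density per 100 kb of window beside each bar. Cbx7 has 26 peaks and Pcgf5 has 4, and the window of Pcgf1 consists of its own end peak and 15 peaks at or in other genes.

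By position, 43 of the 134 peaks lay at the ends or in the bodies of the PRC1 genes and 91 outside them. The 12 peaks at their ends had a median pileup of 79 and a median width of 917 bp. The 31 body peaks had medians of 28 and 395 bp. The 30 peaks at ends of other protein-coding genes had a median pileup of 51.5, the 25 in bodies of other genes 31, and the 36 outside protein-coding genes 34.5. Of these 36, 7 lay at an end of a long non-coding RNA gene. The tallest peak of the window lay within 1 kb of the gene's own ends for 3 genes (Pcgf2, Pcgf3 and Cbx7). That of Pcgf2 also reached an end of Psmb3 and cannot be assigned to Pcgf2. The tallest peak lay in the body for Pcgf5, at another gene's end for 5 genes, and outside protein-coding genes for Rybp. Which gene a peak outside the PRC1 genes belongs to was not tested.

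Local background set fold and pileup apart most in the window of Pcgf2. Its median background was 13.21, with a range of 1.39 to 26.16, against 2.00 for Pcgf5, 2.62 for Pcgf3 and 2.12 over all peaks on chromosomes. Near Mllt6, a neighbour of Pcgf2, a peak with a pileup of 131 (109.5 to 155.4) had a fold of 4.96 at a background of 25.60. At Atp5k, near Pcgf3, a pileup of 82 gave a fold of 16.67 at a background of 3.98.

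**Figure D4:**
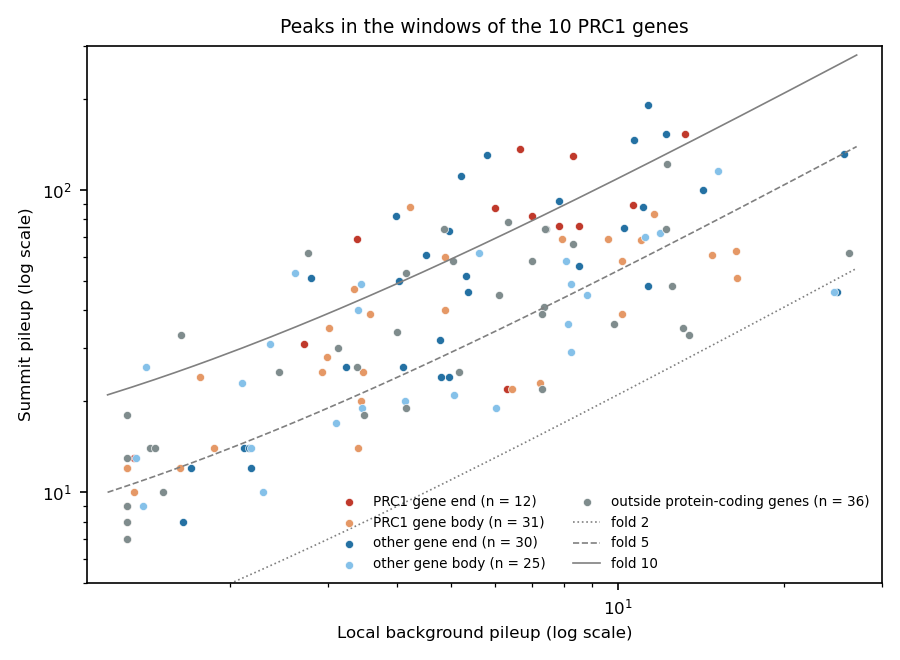
Summit pileup against local background pileup for the 134 peaks, both on log scales, coloured by position, with lines of constant fold 2, 5 and 10. Over all 134 peaks the folds run from 1.82, at a pileup of 46 and a background of 24.88, to 19.26, at a pileup of 130 and a background of 5.80.

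The 8 genes with RefSeq promoter sequences have 12 starts, 3 each for Pcgf5 and Phc2. A peak overlapped the promoter, the 300 bases around the start, at 10 of the 12, against 46.9% of 32817 RefSeq promoters. At Pcgf2 that peak lay before the start and did not cover it. At Phc2, as at Pcgf5, the middle start was the one without a peak. Its first start had a pileup of 69, the third, 72.92 kb inside the gene, one of 35 (24.4 to 48.7), and the second, 34.08 kb inside, had no listed peak within 22.53 kb. In the 300 bases from 250 before to 50 after the start, the starts without a peak held 2 (Phc2) and 5 (Pcgf5) CG dinucleotides. The 10 with a peak held between 10 at Pcgf2 and 45 at the third start of Phc2. Over all RefSeq promoters the median was 21 with a peak and 3 without. Among the 10, CG number and pileup did not share an order: the third start of Phc2 had the most CG dinucleotides and a pileup of 35, and Pcgf3, with 23, had 136.

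**Figure D5:**
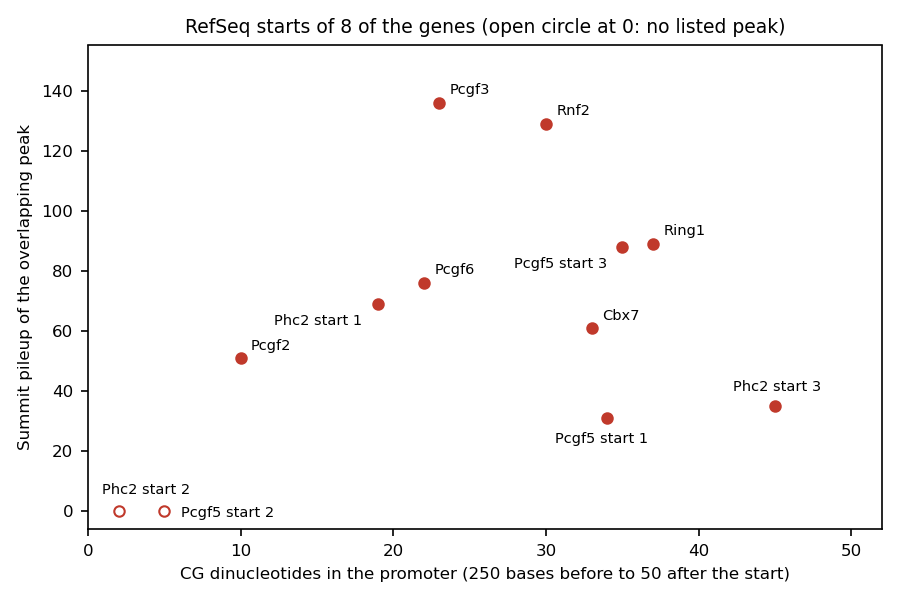
Summit pileup of the peak that overlaps the 300 bases around each of 12 RefSeq starts of 8 genes, against the number of CG dinucleotides in these bases. Open circles at 0 are the 2 starts with no listed peak, which hold 2 and 5 CG dinucleotides.

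Short sequence motifs were searched on both strands of the same 300 bases, with positions counted from the start and given for the first base as written on the gene strand. The GC box GGGCGG, the core of SP/KLF sites, was found in 9 of the 12 promoters and in 35.6% of all RefSeq promoters. Ring1 held it at -135, -33 and 6, Rnf2 at -82 and -76, the first start of Pcgf5 at -129 and -26, and start 3 of Pcgf5 at -87. Pcgf3 held none of the searched motifs, nor did the second start of Pcgf5. CCAAT occurred in 4 of 12 (37.4% of all), at the first start of Pcgf5, at Cbx7 and at the first 2 starts of Phc2. The E-box CACGTG occurred in 2 of 12 (7.15%), at Pcgf2 and the first start of Phc2. The YY1 letters ATGGCGG were found at Ring1 alone (4.05% of all) and the ETS letters CCGGAAG at the third start of Phc2 alone (8.86%). TATAAA, in 13.6% of all promoters, was in none of the 12, and neither were the NRF1 consensus, TGACGTCA (CRE), TTTGGCGC and TTTCCCGC (E2F) or a palindromic CGCG element, each in under 2% of all. The median GC content of the 12 promoters was 67.3%, against 52.7% over all RefSeq promoters. The shares over all promoters were not taken at like GC content. A match is a description of the letters and says nothing about binding. ATGGCGG and GGGCGG share the letters GGCGG, and the 2 GC boxes of Rnf2 lie next to each other.

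Other genes of the pathway were mostly accessible as well. The share over all protein-coding genes was 66.5%, at a median pileup of 66 among those accessible at an end. Of 30 further PRC1 genes 28 were accessible at an end (93.3%), at a median pileup of 78.5 and a range of 14 to 183. The tallest were at Csnk2b, a subunit of casein kinase 2, with 183, and at Max, a partner of PCGF6, with 171. Neither end of Scml2 or Skp1 had one, and the tallest peaks inside these genes had pileups of 13 and 44. Bmi1, the paralog of Pcgf2, had 62 (47.5 to 79.5), and Phc1, the paralog of Phc2, 107 (87.7 to 129.3). By fold Phc1 stood below Phc2, at 5.43 against 16.0, with local backgrounds of 18.9 and 3.38. Among further Cbx genes of canonical complexes, Cbx2 had 99, Cbx6 had 85 and Cbx8 had 65, and Cbx7 with 87 lay between these values. Kdm2b, the partner of PCGF1, had 22 at an end and 98 inside the gene.

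The 13 genes of PRC2, which writes H3K27me3, were all accessible at an end, as were 66.5% of all protein-coding genes. Their median height was 90, their median fold 8.38 and their median density 10.45 peaks per 100 kb. The same medians were 84.5, 10.61 and 10.52 for the 10 PRC1 genes. Over protein-coding genes they were 66 and 11.04, for genes with a gene-end peak, and 5.07 per 100 kb. Ezh2, the catalytic subunit of PRC2, had 157 and Rbbp4 149. The same windows around the PRC2 genes held 199 peaks. The window of the PRC2 gene Epop (chr11:97627387-97629716) overlaps that of Pcgf2. Peaks in the overlap count for both lists, in the totals and in the densities. All 13 genes of the machinery that removes ubiquitin from H2A had a gene-end peak too, beside the same 66.5% of protein-coding genes. Their median pileup was 75, the tallest being Kdm1b (199) and Asxl2 (149), and Bap1, a deubiquitinase, had 106. No test of these differences between lists was made, because the genes of 1 library are not replicates.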

How the data were processed

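One ATAC-seq peak list of the untreated group (n = 1) was used, and the groups came from the sample titles, since the labels for treatment state 6 h for the samples titled 1 h and 24 h. Per the submitters' processing notes, Bowtie2 2.3.4.1, SAMtools 1.9 and MACS2 2.2.6 were used with the builds GRCm38.p6 and mm10, with no control named. Filters on duplicates and mapping quality, and any shift for Tn5, are not given, and duplicates, if kept, would raise pileups. The authors deposited a fold (ratio) per peak, -log10 p and -log10 q, an integer score that equals -log10 q times 10 rounded down, and the summit offset, and the lowest -log10 q was 1.3.

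Pileup and background were solved from fold and the Poisson p, and whole pileups resulted for 77626 of 77629 peaks (99.996%, tolerance 0.01). Genes and promoters came from RefSeq tables of GRCm38.p6. Gene-end windows were 1 kb either side of both annotated ends, with an overlap of 1 bp or more, because the gene table holds no strand. For each gene the tallest gene-end peak was used. In order of precedence, a peak was placed at a PRC1 gene end, in its body, at another protein-coding gene's end, in another body, or outside. All 10 genes were named, with the 2 tallest genes and every gene without a gene-end peak of each further pathway list and of the marker lists. Other genes of those lists and neighbouring genes beyond the tallest peaks were named after their values were seen. The value of 1 gene of these lists is not reported here. The genes and lists were chosen with earlier results of these data known. On simulated data all 5000 pileups were recovered, and 0 of 1500 window queries differed from a direct count. Alternatives varied the q threshold, the pileup minimum, the windows, the flank, the overlap rule and the choice of peak. Computation used scipy 1.17.1, pandas 2.3.3 and numpy 2.4.6 in Python 3.11.15, and matplotlib 3.10.9 for figures.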

Additional observations from a re-analysis of the deposited data

How the results depend on the processing

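The count of 10 genes with a gene-end peak was unchanged with -log10 q of at least 5, with a pileup of at least 20, with windows of 500 or 2500 bp and with the summit required inside. It was 8 when the end peaks that Ring1 and Pcgf2 share with a neighbour were left out, an alternative chosen after seeing the data, and the median pileup was then 79 in place of 84.5. The total of 134 peaks became 112 with -log10 q of at least 5 and 102 with a pileup of at least 20. The median number of peaks per window, 12 with flanks of 50 kb, was 7.5 with 20 kb and 21 with 100 kb, since the windows are shorter or longer, and the median density was 12.91 and 9.55 per 100 kb. Of 30 other PRC1 genes 28 had a gene-end peak with windows of 500 bp and 29 with 2500 bp. The share over all protein-coding genes is given only for 1 kb windows with shared peaks kept. It was 66.5%, and 60.4% with a pileup of at least 20. The counts under the other settings have no such share beside them. Low pileups limit the values at Pcgf5 and at the weakest body peaks. No paired analysis was possible because 1 library was used.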
